A study of Mus musculus with 24 samples.

Results

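The 117 genes described here surround Dbp on mouse chromosome 7, in livers of mice lacking Dbp, Tef and Hlf and of wild-type mice. They were chosen by position and level. Each starts between 35.7 and 55.7 Mb on chromosome 7 of the mm10 genome build, within 10 Mb of Dbp, and averaged at least 0.5 CPM (counts scaled to the size of the library) over 24 libraries. The count table listed 54532 genes, 610 of them in this window, and 131 of those reached the minimum. Another 14 were left out by name: Dbp itself, Saa1 to Saa4, Abcc6, Ftl1, Fgf21, Atf5, Ppp1r15a and the ribosomal protein genes. Of the 117 genes, 87 lie on the side of Dbp towards the centromere and 30 on the other side, and 103 are annotated as protein-coding. All 117 passed the filter on low counts and were tested.

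Knockout mice were labelled Hlf-/-/Dbp-/-/Tef-/- and wild-type mice Hlf+/+/Dbp+/+/Tef+/+. Livers of both genotypes were sampled every 4 h, from ZT04 to ZT24 (zeitgeber time, in hours), at an age of 12 to 16 weeks, with the feeding regimen labelled AL for all. There were 2 libraries for each genotype and time, 24 in all, each of polyadenylated RNA from whole liver. One library of each group has an I in its label and the other a P, so that the libraries form a set I and a set P. The labels explain neither letter, give no strain, and do not say which part of each gene was deleted. They do not state whether the 2 libraries of a group are 2 animals, and a p-value may thus reflect technical spread alone.

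Dbp, Tef and Hlf encode the PAR bZip transcription factors, which bind D-box sequences and carry timing from the circadian clock to genes of hepatic metabolism and detoxification. Dbp sits in a gene-dense stretch beside genes for enzymes, zinc finger proteins, immune receptors and secretory-pathway proteins. As general background, an allele made by gene targeting keeps DNA of the embryonic stem cell's strain around it through many generations of crossing, because nearby DNA is inherited together. In these groups the loss of Dbp, the loss of Tef and Hlf and any such flanking DNA always occur together. Their effects on the neighbouring genes cannot be told apart.

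The deleted genes matched the labels. Dbp had 0.0199 ± 0.0382 CPM in knockout libraries and 15.4 ± 20.3 CPM in wild-type libraries (SD, n = 12 each), with 4 counts over all knockout libraries. Hlf had 1.55 ± 1.02 CPM in knockout libraries and 72.7 ± 18.1 CPM in wild-type libraries. Tef had 14.7 ± 9.81 CPM in knockout libraries and 185 ± 103 CPM in wild-type libraries. The knockout values of each gene all lay below its wild-type values. Library totals ran from 14613001 to 19288322 counts. The 6 hepatocyte markers summed to between 38439 and 64508 CPM in knockout libraries and between 63753 and 92907 CPM in wild-type libraries. In the knockout, 0 of the 6 were higher, against 12.1% of all genes tested, and 5 were lower, against 21.1%. The wild-type libraries of set I stood apart: their deviations correlated across genes with the GC content of the transcript at r of 0.211 to 0.648, against -0.305 to 0.0538 in the other wild-type libraries and the knockout libraries. Where a call described below was lost within a set or without these 6 libraries, this is given for the main lists and genes.

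The transcription factor gene Tead2 and the transporter gene Slc6a16, which lie next to each other with Cd37 between them, carry the largest rises. Their promoters are shown with that of Car11, the gene that ends 405 bases before the start of Dbp and fell in the knockout. Each runs from 250 bases before to 50 after a RefSeq transcription start on the plus strand of GRCm38.p6, at chr7:45215542-45215841 for Tead2, chr7:45240503-45240802 for Slc6a16 and chr7:45699554-45699853 for Car11. All letters are in lower case because no D-box was found to mark.
Tead2: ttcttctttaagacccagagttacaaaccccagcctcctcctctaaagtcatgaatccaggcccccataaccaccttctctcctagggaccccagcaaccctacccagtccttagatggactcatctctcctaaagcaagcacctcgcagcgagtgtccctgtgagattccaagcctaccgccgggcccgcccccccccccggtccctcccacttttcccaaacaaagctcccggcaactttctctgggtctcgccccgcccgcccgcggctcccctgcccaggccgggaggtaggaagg
Slc6a16: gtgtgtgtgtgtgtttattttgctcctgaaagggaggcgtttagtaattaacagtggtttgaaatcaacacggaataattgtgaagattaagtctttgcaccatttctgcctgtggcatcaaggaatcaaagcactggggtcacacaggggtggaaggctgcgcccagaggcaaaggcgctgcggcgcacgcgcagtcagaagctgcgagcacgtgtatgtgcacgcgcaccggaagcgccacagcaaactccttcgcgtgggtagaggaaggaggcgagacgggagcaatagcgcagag
Car11: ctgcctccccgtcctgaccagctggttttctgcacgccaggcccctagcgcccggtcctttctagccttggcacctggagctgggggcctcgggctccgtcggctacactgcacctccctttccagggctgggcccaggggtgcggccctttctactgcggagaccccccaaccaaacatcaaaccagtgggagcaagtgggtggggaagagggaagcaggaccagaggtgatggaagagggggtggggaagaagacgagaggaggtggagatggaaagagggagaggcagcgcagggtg
The D-box was searched as TTATGTAA and TTACGTAA on both strands. None of 119 promoters of the 95 genes with a RefSeq entry held either sequence, against 347 of 32851 promoters in the whole RefSeq table, or 1.06%. No match says only that these letters are not in this window. The promoters of Tead2, Slc6a16 and Car11 hold 13, 19 and 11 CpG dinucleotides and are 61.3%, 54.0% and 64.7% GC.

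Averaged over the day, 59 of the 117 genes differed between knockout and wild type at an edgeR adjusted p under 0.05, or 50.4%, against 33.2% of all 15090 genes tested. In the knockout, 17 rose, or 14.5%, against a background of 12.1%, and 42 fell, or 35.9%, against 21.1%. The share of rises is close to the background. With the set letter as a block and a correction for GC content and length, 37 rose and 39 fell, and with no filter on low counts 29 rose and 40 fell. Leaving out the wild-type set P library of ZT04, ZT16 or ZT20 gave 27, 29 and 34 rises. Shares of all genes called under these settings are not given here, so these counts stand against no background. In the main fit, shares of large and of fully separated changes lay further from the background. Changes of more than 1 on the log2 scale were called for 24 genes, or 20.5%, against 4.5% of all genes. Of these, 9 rose, against a background of 2.7%, and 15 fell, against 1.8%. For 22 genes, or 18.8%, the 12 knockout libraries did not overlap the 12 wild-type libraries, against 1.52% of all genes. In 9 of them every knockout library lay above, against 0.596%, and in 13 every knockout library lay below, against 0.921%. A change of the same sign at all 6 times was called for 45 genes, or 38.5%, against 22.5%.

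The minimum of 0.5 CPM was met by 12 genes through a single genotype. These had to differ to be included, and 10 of them were called. The called ones are Car11, Cpt1c, Nkg7, Zfp473, Klk1b4, Gm28076, Gm28078, Gm44992, Gm45086 and Mrgprb11-ps. Among the other 105 genes, 49 were called, or 46.7%, with 14 changed by more than 1 on the log2 scale and 14 without overlap, each 13.3%. Among the 13926 genes tested that meet the same CPM minimum, 34.2% were called, 3.58% changed by that much and 1.58% had no overlap.

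The 22 separated genes were called in set I alone, in set P alone and without the 6 wild-type libraries of set I. They were chosen as separated over all 24 libraries. Their direction in each subset was thus fixed by the choice, and these calls are no replication. In set P alone, 13 of the 117 genes rose, against 6.71% of all genes, and 26 fell, against 6.33%. In set I alone, 28 rose, against 17.8%, and 29 fell, against 14.2%. Called in both sets with the same sign were 32 genes, or 27.4%, against 8.75%, 10 of them higher and 22 lower in the knockout. Without the 6 wild-type libraries of set I, 21 rose, against 9.91%, and 30 fell, against 8.86%, and 45 of the 59 calls remained.

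**Figure D1:**
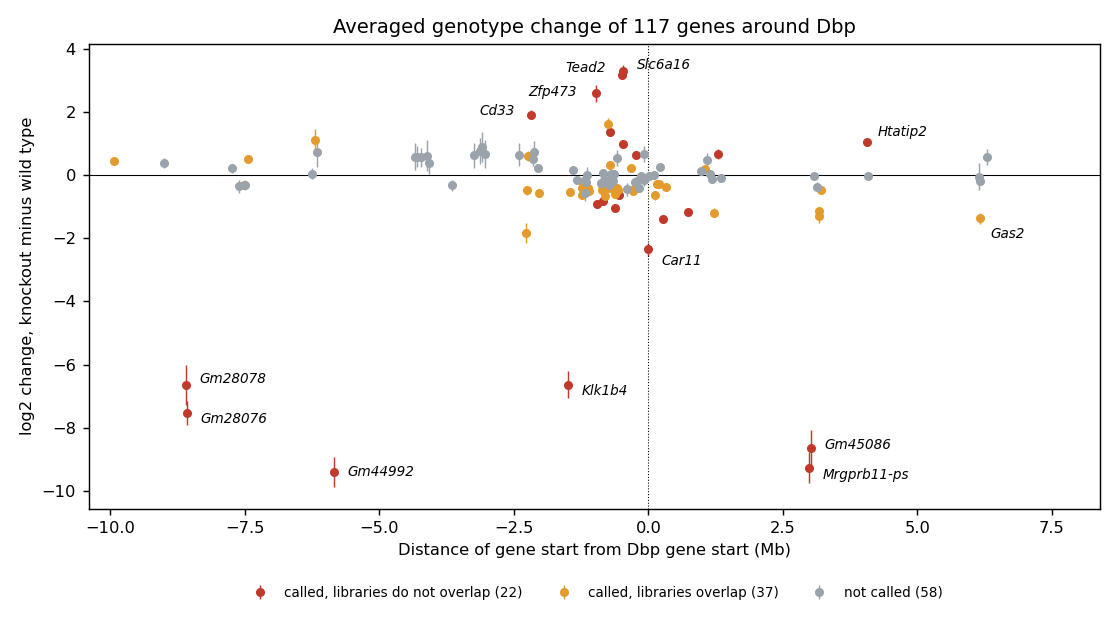
Averaged log2 change, knockout minus wild type, of each of the 117 genes (y axis, with the standard error as a bar) by the distance of its start from that of Dbp in Mb (x axis). The 22 genes whose knockout and wild-type libraries do not overlap are in red, the 37 other called genes in orange and the 58 genes not called in grey; red points lie on both sides of Dbp, as far as 8.585 Mb away.

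Called genes were spread over the window. Within 1 Mb of Dbp, 30 of 52 genes were called and 13 did not overlap between genotypes, or 57.7% and 25%, against 33.2% and 1.52% of all genes tested. More than 5 Mb away, 8 of 17 were called, or 47.1%, and 3 did not overlap, all 3 of them noncoding gene models near 0 in the knockout. In the densest step, the 2 Mb before Dbp, 31 of 55 genes were called, or 56.4%, and 9 changed by more than 1 on the log2 scale, or 16.4%, against 4.5% of all genes. At 2 to 4 Mb beyond Dbp, 5 of 7 were called, all lower in the knockout, against 21.1% of all genes. Of these, 4 changed by that much, or 57.1% of the 7, against 4.5%. They were Mrgprb11-ps and Gm45086, which met the CPM minimum only through wild type, and E2f8 and Gm2788, which overlap each other. Beyond 4 Mb on that side, Htatip2 and Gas2 were called.

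Another 3 groups of genes serve as a measure for these shares, and no test was run between them. Of the other genes of chromosome 7, 956 met the same minimum, among them the 14 left out by name, Dbp included. Of the 956, 41.7% were called, 7.95% changed by more than 1 on the log2 scale and 5.02% had no overlap. Within 10 Mb of Hlf, on chromosome 11, these shares were 35.4%, 2.56% and 1.54% of 195 genes. Within 10 Mb of Tef, on chromosome 15, they were 45.5%, 3.92% and 2.35% of 255 genes. The plot of shares by region shows that the share of large and of fully separated changes was higher around Dbp than around the other deleted genes.

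**Figure D2:**
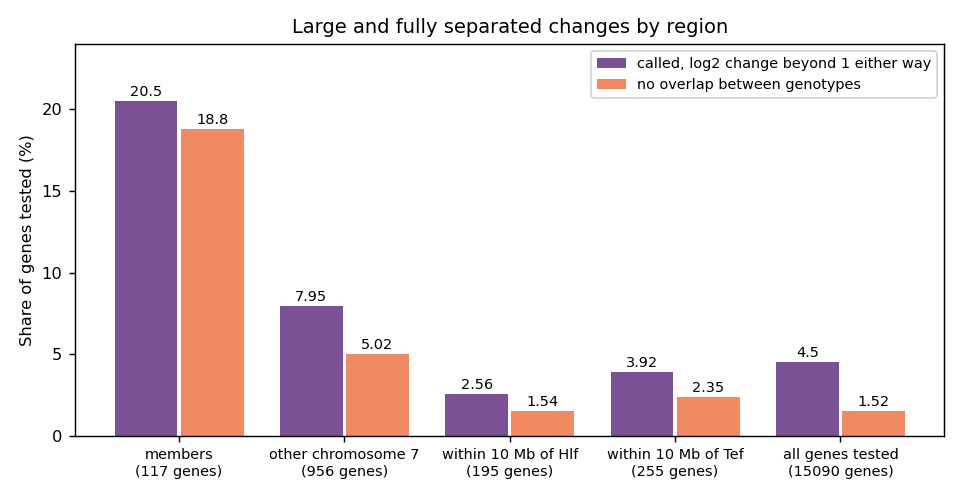
Share of tested genes (y axis, percent) that were called with a log2 change of more than 1 in either direction (purple) and whose 12 knockout libraries do not overlap the 12 wild-type libraries (orange). Groups are the 117 genes around Dbp, all other chromosome 7 genes (Dbp included), the windows around Hlf and Tef and all genes tested. Around Dbp the bars stand at 20.5% and 18.8%, against 4.5% and 1.52% for all genes.

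Transcription and chromatin factors held the clearest rise. Tead2 (chromosome 7, 45215753 to 45233644) encodes a TEA-domain transcription factor that binds DNA for YAP and TAZ, the coactivators held back by the Hippo pathway. It had 5.09 CPM in the lowest, 7.47 in the median and 12.4 in the highest of 12 knockout libraries, against 0.51, 0.844 and 1.35 CPM in wild-type libraries. The lowest knockout library was above the highest wild-type library. The log2 change was 3.20 ± 0.12 (SE), with an edgeR adjusted p of 7.38e-11, and was called at all 6 times. At ZT12 the 2 knockout libraries had 12.4 and 9.9 CPM, against 0.727 and 0.606 CPM in wild type, and this was the time of the largest difference, 4.05 on the log2 scale. At ZT20, with 7.98 and 7.04 CPM in knockout and 1.35 and 1.08 CPM in wild type, it was smallest, 2.62. The change was 3.14 in set I and 3.25 in set P. Tead2 shares its last 13 bases with the end of Cd37 on the other strand, and the strand setting of the counting is not given in the sources used here.

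Of the 14 transcription and chromatin factors measured, 3 rose and 3 fell, against backgrounds of 12.1% and 21.1%. Beside Tead2, the rises were Htatip2 and Spty2d1. Htatip2, which encodes a dehydrogenase-like protein described as a tumour suppressor, had 57.8, 73.9 and 108 CPM (lowest, median and highest) in knockout libraries, against 23.2, 34.7 and 54.3 CPM in wild-type libraries. These ranges did not overlap, although the lowest knockout value is close to the highest wild-type value. The log2 change was 1.07 ± 0.10 (edgeR adjusted p = 5.19e-06), and it was called at 4 of 6 times. Spty2d1, a histone chaperone gene, had 29.2, 32.5 and 37.8 CPM in knockout libraries, against 8.87, 21.8 and 28.4 CPM in wild-type libraries, a log2 change of 0.68 ± 0.16 (adjusted p = 0.00716). It was 0.97 in set I and 0.49 in set P.

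The falls in this group were Irf3, Ruvbl2 and E2f8. E2f8, an atypical E2F repressor that takes part in hepatocyte polyploidy, had 1.77, 4.55 and 7.32 CPM in knockout libraries, against 3.92, 9.5 and 34.4 CPM in wild-type libraries, which overlap. Its log2 change was -1.28 ± 0.22 (edgeR adjusted p = 0.000785), and E2f8 was not called in set I alone (edgeR adjusted p = 0.0535). The change ran from -2.80 at ZT12 to -0.05 at ZT24. Irf3, a factor of the interferon response, changed by -0.41, and Ruvbl2, an ATPase of chromatin-remodelling complexes, by -0.50. Their changes did not pass the test in set P alone (edgeR adjusted p = 0.113 and 0.115), and that of Irf3 did not in set I alone either (0.0525).

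The other genes of the Hippo pathway lie outside this window. Of 24 pathway components tested, 3 were higher (Tead2, Wwc2 and Amotl1), against 12.1% of all genes. Another 5 were lower (Wwtr1, Taok3, Tead1, Ajuba and Nf2), against 21.1%, and the median log2 change of the 24 was 0.10. Tead1, the paralogue of Tead2, averaged 11.7 ± 2.02 CPM in knockout and 15.9 ± 4.33 CPM in wild type (SD, n = 12 each), a log2 change of -0.43. Yap1 averaged 95.6 ± 4.63 CPM in knockout and 102 ± 10.7 CPM in wild type and was not called. Of 21 genes known as YAP and TEAD targets, 2 were higher (Dock5 and Asap1), against the same 12.1%. Another 4 were lower (Ccnd1, Ccn2, Nt5e and Igfbp3), against 21.1%, and the median of the 21 was 0.02. In set I alone, 4 of the 21 targets were higher and 1 was lower, and in set P alone 0 were higher and 1 was lower. Of the pathway components, 7 were higher and 2 lower in set I alone, and 2 were higher and 4 lower in set P alone. Over all genes, 17.8% were higher and 14.2% lower in set I alone, and 6.71% and 6.33% in set P alone. The classic target Ccn2 averaged 3.23 ± 0.641 CPM in knockout and 5.92 ± 3.39 CPM in wild type. Ccn1, another such target, averaged 5.92 ± 1.83 CPM in knockout and 5.82 ± 1.82 CPM in wild type.

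A list of channels, transporters and synaptic genes also holds Josd2, a deubiquitinase gene, and Myh14, a nonmuscle myosin gene. Of its 7 genes measured, 1 rose, against a background of 12.1%, and 4 fell, against 21.1%. The rise was Slc6a16 (chromosome 7, 45241085 to 45273367), an orphan member of the family of sodium-coupled neurotransmitter transporters. It had 5.95, 9.26 and 19.2 CPM in knockout libraries, against 0.382, 1.07 and 1.65 CPM in wild-type libraries, with a wide gap between the genotypes. The log2 change was 3.31 ± 0.19 (edgeR adjusted p = 1.65e-08), the largest rise among the 117 genes, and was called at all 6 times. The 2 knockout libraries of a time did not always lie close together: at ZT16 they had 19.2 and 9.53 CPM, against 1.10 and 0.382 CPM in wild type. The change was 3.38 in set I and 3.19 in set P. The falls included Josd2 by 0.61, Myh14 by 0.49 and Nav2, a neuron navigator gene, by 0.45 on the log2 scale. Josd2 was not called in set I alone (edgeR adjusted p = 0.0567), Myh14 not in set P alone (0.222), and Nav2 not without the 6 wild-type libraries of set I (0.0536).

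**Figure D3:**
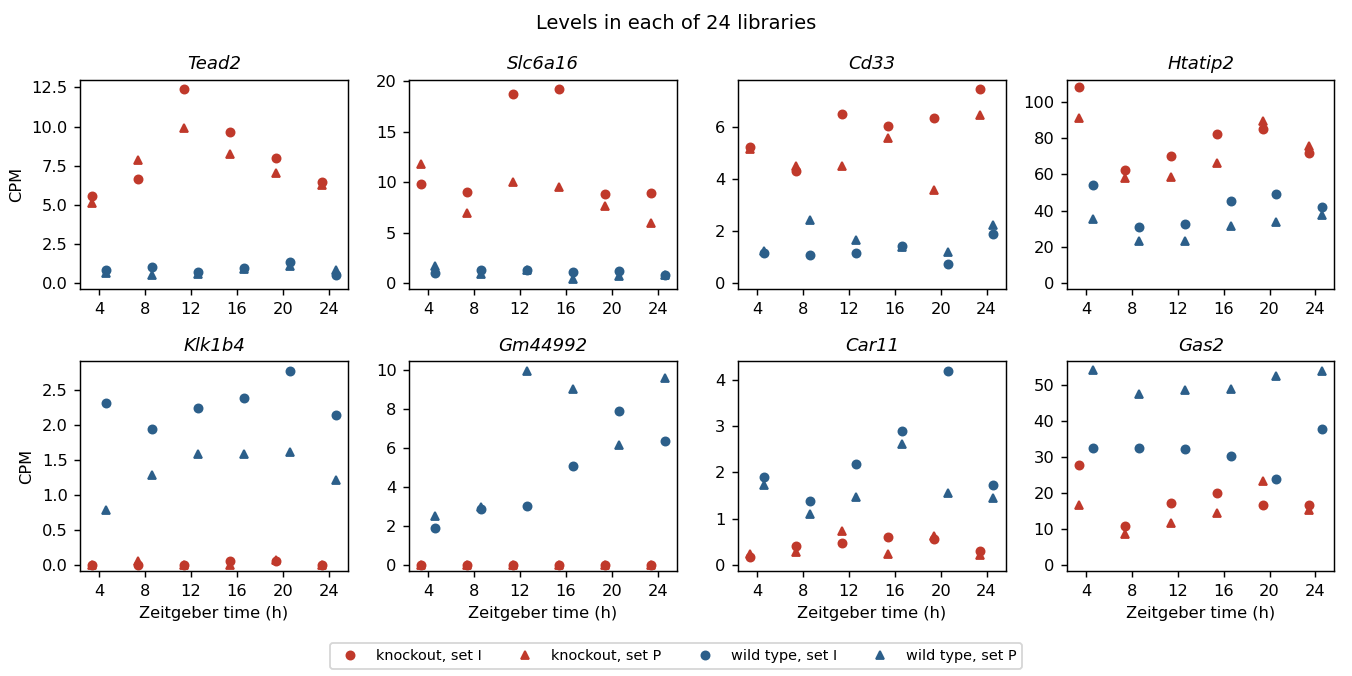
Level in CPM (y axis) of 8 genes in each of the 24 libraries by zeitgeber time in hours (x axis); knockout in red, shifted left, and wild type in blue, shifted right; circles are set I and triangles set P. Knockout values of Tead2, Slc6a16, Cd33 and Htatip2 lie above all wild-type values, those of Klk1b4, Gm44992 and Car11 lie below, and those of Gas2 overlap between ZT04 knockout and ZT20 wild-type libraries.

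Of 11 metabolic enzymes, 2 rose, against a background of 12.1%, and 5 fell, against 21.1%. Dhdh, a dihydrodiol dehydrogenase that oxidises dihydrodiols of aromatic hydrocarbons and certain sugars, had 206, 241 and 279 CPM in knockout libraries, against 114, 157 and 195 CPM in wild-type libraries. The ranges did not overlap, and the log2 change was 0.64 ± 0.06 (edgeR adjusted p = 5.19e-06). Cpt1c, the brain isoform of carnitine palmitoyltransferase, was low, at 0.307, 0.92 and 1.29 CPM in knockout libraries and 0.121, 0.286 and 0.445 CPM in wild-type libraries, a log2 change of 1.63 ± 0.18 (adjusted p = 2.27e-05). Car11, a carbonic anhydrase-related protein without catalytic activity, had 0.163, 0.344 and 0.739 CPM in knockout libraries, against 1.10, 1.73 and 4.19 CPM in wild-type libraries, which do not overlap. Its log2 change was -2.35 ± 0.20 (adjusted p = 1.31e-06), called at 4 of 6 times. Cpt1c and Car11 each met the CPM minimum only through a single genotype and had to differ to be included. The other falls were Etfb, an electron transfer flavoprotein subunit, Aspdh, Aldh16a1 and the glycogen synthase gene Gys1, by 0.40 to 0.47 on the log2 scale. Etfb and Gys1 were not called in set I alone (edgeR adjusted p = 0.0556 and 0.0835), in set P alone (0.119 and 0.109) or without the 6 wild-type libraries of set I (0.185 and 0.17). Aspdh was called in each set but not without those 6 libraries (0.0897). With the block and GC correction Etfb was at -0.10 (0.297) and Aspdh at 0.06 (0.573). Ldha, the lactate dehydrogenase subunit, averaged 716 ± 92.1 CPM in knockout and 699 ± 248 CPM in wild type and was not called.

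Car11 fell, and the gene on the other side of Dbp was not called. That gene, Sphk2, encodes a sphingosine kinase and shares 737 bases with the end of Dbp on the other strand. It had 22.1, 32.5 and 56.7 CPM in knockout libraries, against 21.7, 32.3 and 65.9 CPM in wild-type libraries, a log2 change of -0.03 ± 0.13. Without the strand setting, reads of its overlap with Dbp cannot be assigned to either gene here. Of the 5 nearest genes on the Car11 side, Plekha4, Bcat2, Fut1 and Rasip1 were not called, at changes of -0.39, -0.01, 0.68 and -0.16. Of the 5 nearest on the Sphk2 side, Cyth2, an activator of ARF GTPases, was not called in the average, at 0.01, but was higher in set P alone (0.27, edgeR adjusted p = 0.0273) and without the 6 wild-type libraries of set I (0.26, adjusted p = 0.0141). Grwd1, which acts in ribosome assembly, Kdelr1, a receptor that returns proteins to the endoplasmic reticulum, and Tmem143 fell by 0.63, 0.28 and 0.26 on the log2 scale. None of these 3 was called in set P alone (edgeR adjusted p = 0.0726, 0.232 and 0.191), and none without the 6 wild-type libraries of set I (0.0782, 0.48 and 0.348).

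Of 19 genes of membrane traffic and the secretory pathway, 1 rose, against a background of 12.1%, and 9 fell, against 21.1%. Sergef, a gene named for a guanine nucleotide exchange factor that regulates secretion, had 1.15, 1.85 and 2.44 CPM in knockout libraries, against 2.62, 4.05 and 5.79 CPM in wild-type libraries, a log2 change of -1.15 ± 0.12 (edgeR adjusted p = 1.51e-05). Rcn3, a calcium-binding protein of the endoplasmic reticulum, had 1.37, 2.02 and 2.62 CPM in knockout libraries, against 2.96, 4.08 and 6.14 CPM in wild-type libraries, a log2 change of -1.04 ± 0.12 (adjusted p = 2.34e-05). Neither gene overlapped between genotypes. Uevld, which carries a ubiquitin E2 variant domain and a lactate dehydrogenase-like domain, had 3.28, 5.35 and 6.57 CPM in knockout libraries, against 5.54, 12.7 and 15.9 CPM in wild-type libraries, which overlap. Its log2 change of -1.18 ± 0.15 (adjusted p = 6.67e-05) was -0.77 in set I and -1.53 in set P. Fcgrt, the neonatal Fc receptor that rescues IgG and albumin from degradation, averaged 123 ± 14.9 CPM in knockout and 185 ± 44.9 CPM in wild type, a log2 change of -0.58. The other falls, in Emc10, Tbc1d17, Ap2a1, Kdelr1 and Nomo1, were between -0.43 and -0.28 and none was called in set P alone. Emc10, Tbc1d17 and Kdelr1 were not called in set I alone either (edgeR adjusted p = 0.0565, 0.0741 and 0.0657). The rise, in Hps5, was 0.19, and it was not called in set I alone (edgeR adjusted p = 0.172), in set P alone (0.285) or with the block and GC correction (0.06, adjusted p = 0.293).

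In RNA processing, DNA replication and repair, 3 of 11 genes rose, against a background of 12.1%, and 5 fell, against 21.1%. Vrk3, a kinase-like protein without kinase activity, had 13.1, 16.1 and 18.5 CPM in knockout libraries, against 23.2, 27.4 and 44.9 CPM in wild-type libraries, a log2 change of -0.91 ± 0.11 (edgeR adjusted p = 4.23e-05). Pih1d1, a subunit of the R2TP chaperone complex, changed by -0.61 ± 0.11. In both genes the genotypes did not overlap. Ctu1, which modifies transfer RNA, and Grwd1 fell by 0.56 and 0.63 on the log2 scale. Pop4, a subunit of ribonuclease P, Bcl2l12 and Snrnp70, a protein of the U1 splicing particle, rose by 0.52, 0.33 and 0.22. Ctu1, Bcl2l12 and Snrnp70 were not called in set I alone (edgeR adjusted p = 0.0597, 0.393 and 0.0933) or in set P alone (0.0646, 0.162 and 0.123). Pop4 was not called in set I alone (0.0691). Leaving out any of 13 libraries ended the call of Bcl2l12, with adjusted p up to 0.0985, and any of 10 that of Snrnp70, with adjusted p up to 0.0735.

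Gas2, whose product binds actin filaments and microtubules, belongs to none of these lists. It had 8.74, 16.6 and 27.7 CPM in knockout libraries, against 23.8, 42.7 and 54.4 CPM in wild-type libraries, a log2 change of -1.36 ± 0.17 (edgeR adjusted p = 5.64e-05). Within each time its knockout libraries lay below its wild-type libraries, while the whole ranges overlap slightly. Wild-type levels of Gas2 were higher in set P, at 47.7 to 54.4 CPM, than in set I, at 23.8 to 37.8 CPM, and the change was -0.84 in set I and -1.82 in set P. Outside the lists were 35 genes in all, of which 1 rose, against a background of 12.1%, and 13 fell, against 21.1%.

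Immune receptors and ligands moved in both directions, with 3 of 8 higher, against a background of 12.1%, and 3 lower, against 21.1%. Cd33, a sialic acid-binding receptor of myeloid cells, had 3.56, 5.4 and 7.47 CPM in knockout libraries, against 0.739, 1.31 and 2.44 CPM in wild-type libraries, with no overlap. Its log2 change was 1.93 ± 0.15 (edgeR adjusted p = 3.14e-07), called at 5 of 6 times. Siglece, a related receptor gene nearby, averaged 6.69 ± 1.02 CPM in knockout and 5.84 ± 1.72 CPM in wild type and was not called in the average. It was higher in set P alone (0.46, edgeR adjusted p = 0.03), without the 6 wild-type libraries of set I (0.38, 0.0453) and with the block and GC correction (0.35, 0.0189). Cd37, a tetraspanin of B cells and other leukocytes, had 3.83, 5.47 and 6.51 CPM in knockout libraries, against 1.86, 2.64 and 3.53 CPM in wild-type libraries, a log2 change of 1.0 ± 0.11 (adjusted p = 2.04e-05). Nkg7, a granule protein of natural killer and cytotoxic T cells, had 0, 0.263 and 0.629 CPM in knockout libraries, against 0.445, 0.793 and 1.38 CPM in wild-type libraries, which overlap. Its log2 change was -1.82 ± 0.31 (adjusted p = 0.000755). Nkg7 met the CPM minimum only through wild type and had to differ to be included. Vsig10l rose by 0.61, and Fcgrt and the cytokine gene Flt3l fell by 0.58 and 0.41. Vsig10l and Flt3l were not called in set I alone (edgeR adjusted p = 0.0632 and 0.207) or in set P alone (0.0608 and 0.0912), and Flt3l not without the 6 wild-type libraries of set I (0.203).

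In RNA from whole liver, fewer cells of a type and less RNA per cell cannot be told apart. The marker counts below stand against 12.1% of all genes tested higher in the knockout and 21.1% lower. Of 6 macrophage markers, 3 were higher (Marco, Vsig4 and Adgre1) and 0 lower, with 0 called in set I alone and 2 in set P alone. Their summed level was 426 to 646 CPM in knockout libraries and 402 to 746 CPM in wild-type libraries. Marco, Vsig4 and Adgre1 changed by 0.76, 0.27 and 0.45 on the log2 scale, and Cd33 by 1.93. The macrophage markers not called, Cd5l, Clec4f and Csf1r, changed by -0.07, -0.14 and -0.02. In set I alone Marco was at 0.36 and Cd33 at 2.28, and in set P alone they were at 1.14 and 1.54. Of 6 B and plasma cell markers, 0 were higher and 4 lower, Cd79a, Cd79b and Mzb1 among them, and none was called in set I alone or in set P alone. They had a summed level of 5.74 to 13.4 CPM in knockout libraries and 4.91 to 18.6 CPM in wild-type libraries. Of the 5 markers of T and NK cells tested, Cd8a was higher and Nkg7, itself one of the 117 genes, lower. Their summed level was 1.79 to 6.78 CPM in knockout libraries and 1.86 to 4.84 CPM in wild-type libraries. The NK marker Ncr1 averaged 0.316 ± 0.189 CPM in knockout and 0.374 ± 0.276 CPM in wild type, and Klrb1c was too low to test. Markers of these 3 cell types had mean levels above 0 in both genotypes, and the part that cell numbers had in the changes of Cd33, Cd37 and Nkg7 was not tested.

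In 6 genes the knockout libraries were at or near 0. Klk1b4, a kallikrein-type serine protease, had 4 counts over all 12 knockout libraries, against 368 in wild-type libraries. It was at 0 in 8 knockout libraries and at 0.788 to 2.77 CPM in wild-type libraries, and the wild-type over knockout ratio was 94.5 (95% counting interval 36.6 to 349). It was called at all 6 times. Klk1b4 lies in a cluster of near-identical kallikrein genes, so its counts depend on how reads matching several copies were treated. Counting intervals and limits cover counting error only.

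Another 5 such genes are noncoding gene models or pseudogenes, named after their values were seen. Gm44992, a long noncoding RNA gene 5.836 Mb from Dbp, had 0 counts in all 12 knockout libraries and 1133 in wild-type libraries, at least 388-fold lower in the knockout if 3 counts over the group are taken as the limit. The pseudogene Mrgprb11-ps and the neighbouring Gm45086, on the other side of Dbp, had 0 counts each in the knockout, against 1114 and 648 in wild type, at least 382-fold and 222-fold lower. Gm28078 and Gm28076, close together at 8.585 and 8.568 Mb from Dbp, had 1 count each in the knockout, against 223 and 370 in wild type. Their wild-type over knockout ratios were 229 (95% counting interval 40.7 to 9091) and 380.2 (67.8 to 15058). The wild-type levels of Gm44992 were 1.89 and 2.51 CPM at ZT04 and 6.37 and 9.57 CPM at ZT24. Gm28078 was the lowest of these genes in wild type, down to 0.244 CPM, with a median of 0.966 CPM. Gm28076, Gm44992, Mrgprb11-ps and Gm45086 were called at all 6 times and Gm28078 at 3.

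Also outside the naming rule, 2 gene models moved with no overlap but stayed well above 0. Gm15545, annotated as antisense to Bcl2l12, had 5.4, 6.98 and 7.91 CPM in knockout libraries, against 1.86, 2.69 and 3.45 CPM in wild-type libraries, a log2 change of 1.37 ± 0.09 called at all 6 times. Gm45674, a processed pseudogene inside Abcc6 on the other strand, had 0.983, 1.22 and 2.03 CPM in knockout libraries, against 2.65, 3.54 and 4.58 CPM in wild-type libraries, a log2 change of -1.39 ± 0.12. Reads of either gene cannot be told from those of its partner without the strand setting. In all, 60 of the 117 genes overlap an annotated gene on the opposite strand and 25 one on the same strand, among them Zfp473 with Vrk3 and E2f8 with Gm2788.

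The 12 zinc finger genes named Zfp behaved differently in the 2 sets. Most encode putative transcriptional repressors with arrays of C2H2 fingers. Averaged over both sets 3 were higher (Zfp507, Zfp619 and Zfp473), against a background of 12.1%, and 0 lower, against 21.1%. Their median log2 change was 0.67. In set I alone 10 were higher, against 17.8% of all genes, with a median of 1.80. In set P alone 1 was higher, Zfp473, against 6.71%, with a median of 0.19. Their summed level averaged 73.0 ± 5.63 CPM in knockout and 31.1 ± 16.8 CPM in wild-type libraries of set I (SD, n = 6 each), and 83.1 ± 5.45 CPM in knockout and 72.6 ± 5.11 CPM in wild-type libraries of set P. The lowest sums, down to 13.4 CPM, came from the wild-type set I libraries of ZT04, ZT16 and ZT20, in which the correlation with GC content was highest, at 0.581, 0.609 and 0.648. The transcripts of these 12 genes have a median GC content of 41.8%, against 49.2% over all genes tested. Over the 117 genes around Dbp the median is 53.8%, above that of all genes. The part of this GC trend in the changes of the Zfp genes, and in the rises and falls of the 117 genes, was not tested.

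**Figure D4:**
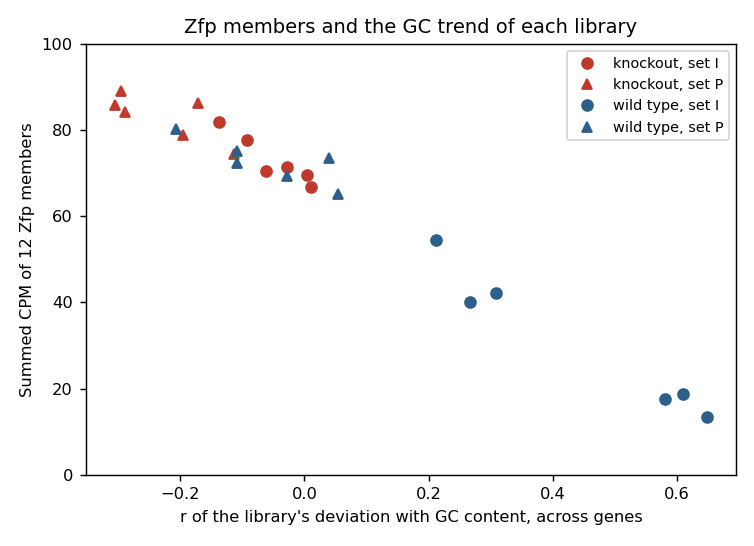
Summed level of the 12 Zfp genes in CPM (y axis) by the correlation, across genes, of each library's deviation with transcript GC content (x axis); knockout in red, wild type in blue, circles for set I and triangles for set P. The 6 wild-type libraries of set I lie at the lower right, between 13.4 and 54.6 CPM, and the other 18 libraries between 65.2 and 89.2 CPM.

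Zfp473 was higher in both sets. Its human counterpart acts in the processing of histone messenger RNA. It had 0.625, 0.92 and 1.71 CPM in knockout libraries, against 0, 0.133 and 0.343 CPM in wild-type libraries, with no overlap. Zfp473 met the CPM minimum only through the knockout and had to differ to be included. The log2 change was 2.60 ± 0.28 (edgeR adjusted p = 1.48e-05), 2.13 in set I and 3.07 in set P. Zfp619 had 2.45, 3.22 and 4.06 CPM in knockout libraries, against 0.123, 1.66 and 2.97 CPM in wild-type libraries, which overlap. Its log2 change of 1.11 ± 0.35 (adjusted p = 0.0279) was 2.15 in set I and 0.54 in set P, where it was not called (adjusted p = 0.0667). Leaving out any of 8 libraries also ended its call, with adjusted p from 0.0513 to 0.0606.

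**Figure D5:**
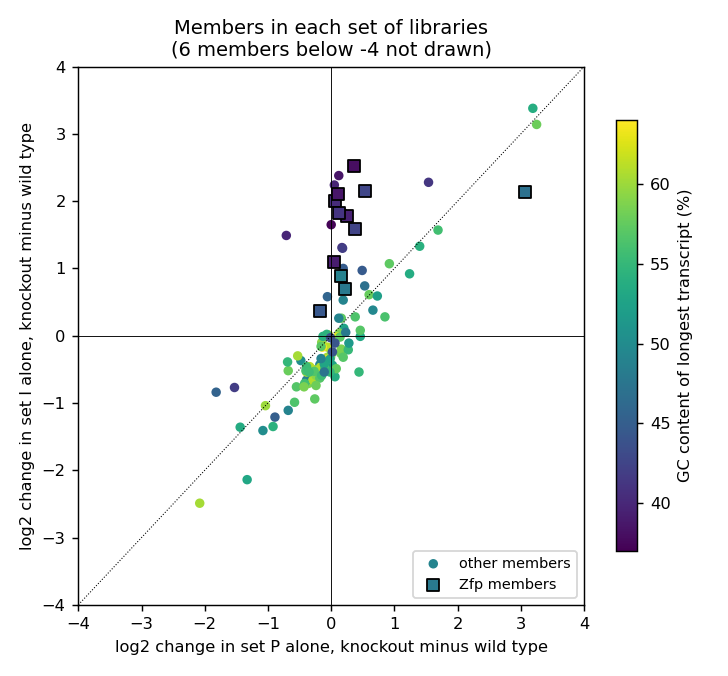
Averaged log2 change of the 117 genes in set I alone (y axis) against set P alone (x axis), coloured by the GC content of the longest transcript; squares are the 12 Zfp genes, and the 6 genes below -4 are not drawn. Most of the genes far above the diagonal are dark, with low GC content, while Tead2 and Slc6a16 at the upper right have changes between 3.14 and 3.38 in both sets.

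The plot of the sets shows how far the changes differ between them. All 59 called genes had the same sign in both sets, as did 96 of the 117. The 59 were called on the average over both sets, which made a shared sign likely in advance. The share of all genes with a shared sign is not given here, so these counts do not measure agreement between the sets. Genes that are not named Zfp but also differ between sets include 2610021A01Rik, at 2.24 in set I and 0.05 in set P, and Svip, an inhibitor of protein degradation at the endoplasmic reticulum, at 1.30 and 0.18. Neither was called in the average. These 2 genes were picked after their values were seen.

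At single times fewer genes passed the test. From ZT04 to ZT24, 15, 13, 18, 15, 27 and 11 of the 117 genes were called, against 1.26%, 0.934%, 1.85%, 1.64%, 3.96% and 0.663% of all genes. Each of these counts rests on 2 libraries per genotype. Called at all 6 times with the same sign were 8 genes, or 6.84%, against 0.285% of all genes: Tead2, Slc6a16, Gm15545, Klk1b4, Gm28076, Gm44992, Mrgprb11-ps and Gm45086. Klk1b4 and the last 4 met the CPM minimum only through wild type and had to differ, which leaves 3 of the other 105 genes. At no time were 85 called, or 72.6%, against 93.8%.

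Whether the genotype difference varied with time was tested as an interaction. In the main edgeR fit 0 of the 117 genes passed, and 0.0% of all genes, with 10 at an unadjusted p under 0.05, or 8.55%, against 6.4%. DESeq2 called 1, Gm2788. The smallest p among the genes that the naming rule admits were those of Prr12, Plekhf1 and Sphk2 (unadjusted p = 0.00547, 0.00653 and 0.00955, edgeR adjusted p = 0.509, 0.517 and 0.572). With no filter on low counts, Plekhf1 and Sphk2 passed (edgeR adjusted p = 0.000856 and 0.00355). Under that setting Csrp3, E2f8 and Gm2788 passed too (edgeR adjusted p = 0.0151, 1.02e-08 and 2.53e-11). Sphk2 had 56.7 and 42.7 CPM in knockout against 22.4 and 21.7 CPM in wild type at ZT08, and 24.4 and 22.1 CPM in knockout against 47.9 and 26.0 CPM in wild type at ZT20. In the main edgeR fit Gm2788, a noncoding gene model, came closest to the threshold (adjusted p = 0.0521). With the set letter as a block Gm2788 passed (edgeR adjusted p = 0.000829). Its changes ran from -2.98 at ZT12 to -0.01 at ZT24, like those of its overlapping partner E2f8.

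Dbp itself is known as a rhythmic gene. A 24 h rhythm passed the test for 4 of the 117 genes in the knockout, or 3.42%, close to the background of 3.57%, and for 6 in wild type, or 5.13%, against 8.67%. In the knockout these were Ccne1, Myh14, Tead2 and Gm2788. In wild type they included Ccne1, Josd2, Ruvbl2, Tmem86a and Nav2. Ccne1, the cyclin that drives entry into DNA synthesis, had an amplitude of 1.72 on the log2 scale with a peak at 10 h in the knockout (edgeR adjusted p = 0.00296), against 1.38 with a peak at 8.8 h in wild type (adjusted p = 0.0135). Tead2 had an amplitude of 0.45 with a peak at 14 h in the knockout (adjusted p = 0.0464), against 0.30 in wild type, where it did not pass (adjusted p = 0.402). Leaving out any of 13 libraries ended the knockout call of Tead2, with adjusted p up to 0.148. Tmem86a, a lysoplasmalogenase gene, had an amplitude of 0.24 in the knockout (adjusted p = 0.439), against 0.50 in wild type (adjusted p = 0.0088). Rhythm differed between genotypes for 0 genes in edgeR and in DESeq2, with 13 at an unadjusted p under 0.05, or 11.1%, against 5.25%. Of these, Myh14, Prr12 and Bcl2l12 had the smallest p among the genes that the naming rule admits (adjusted p = 0.712, 0.767 and 0.767).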

How the data were processed

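Per the labels' protocols, the kit behind the 24 liver libraries was TruSeq Stranded mRNA. Counts were used as the authors deposited them, in a single table of Ensembl genes by libraries without normalization, and no column was left out. The submitters' processing notes name STAR 2.4.0i and mm10. Which tool, annotation and strand setting gave the counts is not given in the sources used here. Symbols, positions, GC content and transcript length came from GENCODE M21, which held 54409 of the 54532 gene IDs, and promoters from RefSeq.

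CPM values were computed from counts over TMM-scaled library sizes. Tests were quasi-likelihood F-tests in edgeR 4.0.16 (R 4.3.3) on the deposited counts, with filterByExpr by group (minimum count 10) and 12 group means in 1 fit. Contrasts were knockout minus wild type averaged over 6 times, at each time, and as an interaction. Rhythms were fitted with a cosine and a sine of 24 h for each genotype. Adjustment was by Benjamini-Hochberg over all 15090 genes tested, and a gene was called at an adjusted p under 0.05. Totals of 14613001 to 19288322 counts per library set the precision of low values. The procedure was tested on simulated data first. DESeq2 1.42.0, other scalings, filters, blocks and sets of libraries were tried as alternatives.

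Named genes are Tead2 and Slc6a16, the 10 largest called rises and falls with the same sign at all 6 times, the 5 genes nearest Dbp on each side, and the 3 smallest p for the interaction and for each rhythm test. Where a list had 5 or fewer called genes, these are named too. Gene models and pseudogenes were passed over, and a few genes are not reported here. The genes, the lists and this rule were chosen with earlier results of these data known.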

Additional observations from a re-analysis of the deposited data

How the results depend on the processing

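For the 22 genes without overlap, all 744 averaged changes under the alternatives and with 1 library left out kept their sign and stayed called. Choosing these genes by full separation made this outcome likely in advance, so it does not measure robustness. Genes higher in the knockout numbered 17, and 29 with no filter, 29 with the set letter as a replicate block, 37 with that block and a correction for GC content and length, and 28 in set I alone. Genes lower numbered 42, and 26 in set P alone. With no filter, 25, 23 and 47 were called at ZT04, ZT16 and ZT20, and 53 at ZT20 with the set letter as a replicate block. The interaction was called for 1 gene by DESeq2, 5 with no filter, 1 with the set letter as a block and 1 without wild-type set I. Knockout rhythm was called for 8 genes with the block and GC correction, 0 in set I alone and 18 without wild-type set I. Wild-type rhythm was called for 11 by DESeq2, 12 with the block and GC correction, and 0 in set I alone, in set P alone and without wild-type set I. A rhythm difference was called for 1 with no filter. Most of these counts stand without the share of all genes called under the same setting, and the causes were not tested.

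Reversed in sign were Aspdh (0.06), Emc10 (0.09), Bcat2 (0.14), Rasip1 (0.34) and Sphk2 (0.26) with the block and GC correction, and Bcat2 with RLE scaling (0.01), DESeq2 (0.01), in set I alone (0.02) and without wild-type set I (0.11). Cyth2 was -0.21 in set I alone, Sphk2 0.16 in set P alone, and Rasip1 0.07 and Sphk2 0.26 without wild-type set I.

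Leaving out 1 library gave 14 to 34 genes higher and 37 to 52 lower. Calls at the 6 times, in order, ran from 3 to 21, 4 to 15, 8 to 22, 4 to 20, 4 to 75 and 5 to 11, moved chiefly by the libraries of the time itself. Interaction calls ran from 0 to 1, rhythm calls from 2 to 5 in the knockout and 2 to 12 in wild type. Bcat2 ran from -0.05 to 0.05, Cyth2 from -0.03 to 0.11 and Sphk2 from -0.07 to 0.08. A group left with 1 library was assumed to vary like the others.

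The letters were not taken to pair samples: deviations of same-letter libraries from their group means correlated between genotypes at r of 0.0541 to 0.231, above 0.1 at 3 of 6 times. With the letter within time as a replicate block, 20 genes were higher and 41 lower, and 2, 4, 9, 5, 4 and 3 were called from ZT04 to ZT24. Interaction and single times could not be fitted in 1 set alone, nor rhythms within a genotype with that block.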
